A study of Homo sapiens with 2 samples.

Results

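The nuclear tRNA genes of the human genome were examined for histone H3 lactylated at lysine 18 (H3K18la) in H1299, an established human non-small cell lung cancer line. They were all RefSeq genes of biotype tRNA on chromosomes 1 to 22 (GRCh38), each taken with 1000 bp either side, and numbered 425 of the 56076 placed RefSeq genes of those chromosomes. Another 14 tRNA entries broke the order of gene starts in the annotation. They were therefore taken to sit on alternate or unlocalised sequences and are not analysed here. The series holds 1 library of formaldehyde-crosslinked chromatin immunoprecipitated with an anti-H3K18la antibody and 1 input library, both from H1299, and the labels name no treatment or genotype. The input library is not analysed here. The deposited broad peak list of the immunoprecipitated library, with 28695 peaks, was compared with the gene coordinates. With 1 library there is no replicate spread and no test between conditions, and the depth is unknown. An unmarked gene, meaning one with no peak in the list, may still carry the modification. Each share has a 95% binomial interval (exact, Clopper-Pearson), which covers counting error only and treats genes as independent although neighbours can share a peak.

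tRNA genes are read by RNA polymerase III. Their promoter lies inside the gene, as an A box near the start and a B box near the end of the transcribed part, which bind the factor TFIIIC. TFIIIC places TFIIIB just upstream, and TFIIIB recruits the polymerase. The human genome carries many copies per anticodon, from exact duplicates to diverged relatives, and in any 1 cell type a part of them is occupied by the polymerase. Occupied copies are known to lie in a short stretch of open chromatin between nucleosomes that carry active histone marks. Lactylation of histone lysines uses lactate, the end product of glycolysis. A symbol such as TRH-GTG1-9 gives the amino acid letter (H, histidine) and the anticodon as DNA (GTG). The next number is the sequence variant among genes of that anticodon (1, called the isodecoder here). The last is the copy of that variant (9). The letters X and U stand for initiator methionine and selenocysteine.

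The sequence was read for 14 tRNA genes that lay whole inside a RefSeq promoter window of a neighbouring gene (RefSeq, GRCh38.p14). Not every chromosome was included in this reading, so 14 is not a count over all 425 genes. The 7 below are shown because they include a near-identical pair that differed in whether a peak was listed, copies of 2 exact duplicates, an intron-bearing gene and 2 genes without a peak. Capitals mark the anticodon and the B box, searched as GTTCNANNC on both strands beyond base 45 of the gene. This match was found on 1 strand alone in all 14 genes and set the orientation. It was present on either strand of 7.48% of all 35116 promoter windows of 300 bp. The windows were searched over their whole length, a longer stretch than in the genes.
TRN-GTT4-1 (chr1:16889677-16889750, + strand, 8.95-fold peak 117 bp away): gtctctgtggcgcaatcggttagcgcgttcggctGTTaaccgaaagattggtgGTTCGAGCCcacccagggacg
TRN-GTT6-1 (chr1:143735920-143735993, - strand, no peak): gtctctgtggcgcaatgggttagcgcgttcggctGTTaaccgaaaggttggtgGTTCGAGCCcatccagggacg
TRH-GTG1-9 (chr15:45201151-45201222, + strand, 6.75-fold peak 37 bp away): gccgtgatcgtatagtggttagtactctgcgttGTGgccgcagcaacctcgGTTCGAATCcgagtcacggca
TRP-TGG3-2 (chr14:20684016-20684087, + strand, 5.38-fold peak over the gene): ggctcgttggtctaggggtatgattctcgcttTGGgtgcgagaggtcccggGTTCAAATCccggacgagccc
TRI-TAT2-2 (chr6:27020346-27020439, + strand, 4.88-fold peak over the gene): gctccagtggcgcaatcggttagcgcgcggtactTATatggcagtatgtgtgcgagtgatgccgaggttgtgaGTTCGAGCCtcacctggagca
TRF-GAA1-5 (chr13:94549650-94549722, - strand, no peak): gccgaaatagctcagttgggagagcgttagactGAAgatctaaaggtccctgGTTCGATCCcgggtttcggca
TRA-AGC2-2 (chr6:28863685-28863756, - strand, no peak): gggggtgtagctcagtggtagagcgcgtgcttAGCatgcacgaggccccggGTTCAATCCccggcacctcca
The 2 asparagine genes differed at 3 of 74 bases (C17G, A47G and C65T). These are written with the base of TRN-GTT4-1 first and counted from 1 at the 5′ end of the gene. None of them lay in the anticodon or the B box. The A box was not searched, so whether C17G, which lies near the start of the gene, falls in it was not tested. TRH-GTG1-9 was identical over 72 bases to TRH-GTG1-3, which had a 4.35-fold peak 488 bp away on chromosome 1. TRP-TGG3-2 was identical to TRP-TGG3-5, which had a 4.50-fold peak on chromosome 16.

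H3K18la peaks lay at the majority of tRNA genes, and each isotype had some genes with one. At least 1 peak overlapped the gene or its 1000 bp flanks by 1 bp or more at 238 of 425 tRNA genes (56.0%, 95% interval 51.1 to 60.8). The same rule was met by 389 of 3019 miRNA, snoRNA and snRNA genes of up to 200 bp (12.9%), which are of similar length, by 34.0% of all genes other than tRNA and by 67.6% of the far longer protein-coding genes. Peaks covered 31.5% of the summed tRNA windows, against 6.72% of the windows of the short RNA genes. Among the short classes, snRNA genes reached 19.4%, miRNA genes 14.6% and snoRNA genes 9.24%. The tRNA share thus lay between that of all genes other than tRNA and that of protein-coding genes, with windows as short as those of small RNA genes. The other genes read by RNA polymerase III, described further below, had a similar share of 56.8% (39.5 to 72.9).

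The peaks were close to the whole peak list in median strength, and weaker than the best peaks of the other gene sets. For each gene the overlapping peak of highest fold enrichment was taken, where fold enrichment is the peak caller's ratio of signal over background as the authors deposited it. The 238 genes had 166 distinct peaks of this kind, with a median fold of 4.51 (quartiles 3.57 and 5.37), close to the median of 4.36 (3.50 and 5.83) over all peaks in the list. Their median width was 1320 bp, against 1250 bp over all peaks. Counted once per gene with a peak, the median fold of the best peak was 4.53 at tRNA genes and 5.88 at the short RNA genes. It was 5.55 over all genes other than tRNA and 5.72 over protein-coding genes, whose windows are longer. Of the 166 peaks, 90 (54.2%) were above the list's median fold and 1 reached a fold of 10. Because tRNA genes lie close together, 55 of the peaks served 2 or more genes, 127 genes in all and up to 4 genes per peak.

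The marked genes divided almost evenly between those with a peak over the gene and those with peaks beside it, and coverage was higher a short way off than at the middle. Of the 238 genes with a peak, 125 had one over the gene itself, 101 had peaks on 1 side within 1000 bp and 12 had peaks on both sides with the gene between them. Overlap with the gene itself was seen for 125 of 425 tRNA genes (29.4%), against 7.62% of the short RNA genes (snRNA 16.0%, miRNA 9.20%, snoRNA 3.88%), 31.7% of all genes other than tRNA and 65.9% of protein-coding genes. Where the peak lay beside the gene, the gap had a median of 152 bp (quartiles 81 and 246). Peak coverage was highest 300 to 350 bp from the middle of the gene, where 38.1% of bins of 50 bp were covered, and was 28.5% in the bins next to the middle and 10.6% at 1950 to 2000 bp. The short RNA genes had 7.19% at 300 to 350 bp, 7.39% at the middle and 4.80% at 1950 to 2000 bp, with no dip at the centre. Reads from copies with the same sequence cannot be placed uniquely if they lie within the copied stretch, and how such reads were treated is not given in the sources used here. The share of marked genes with a peak over the gene was 50.5% (40.2 to 60.8) for the 97 genes whose isodecoder occurs once. It was 65.1% (49.1 to 79.0) for the 43 with 2 to 3 copies and 49.0% (38.7 to 59.3) for the 98 with 4 or more copies. These intervals overlapped. Sequence copies were taken from the symbols, and similarity of the flanks was not tested.

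**Figure D1:**
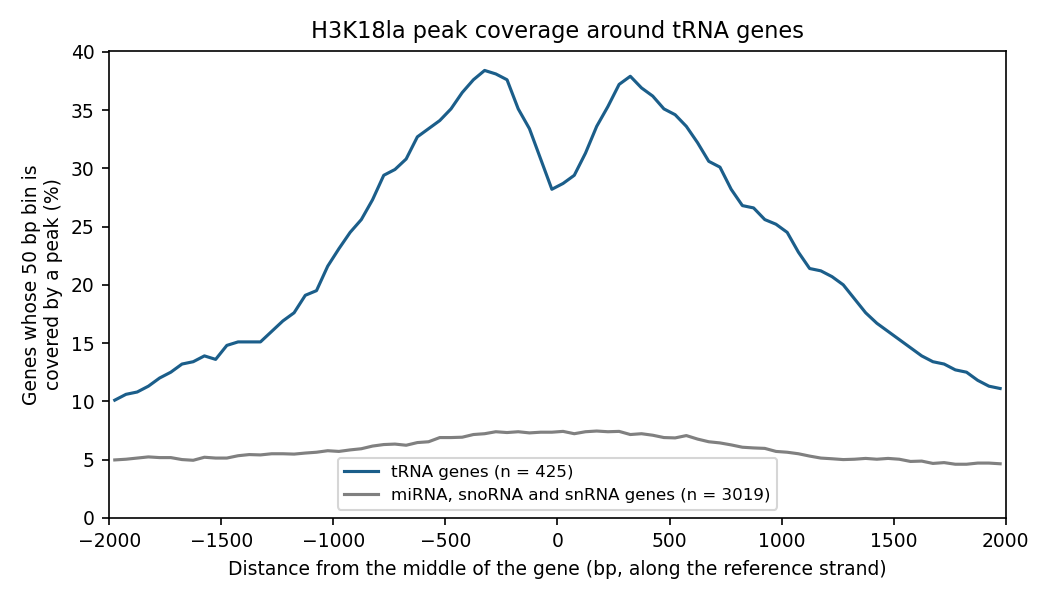
Share of genes whose 50 bp bin was covered by a peak over 25 bp or more, by distance in bp from the middle of the gene, for 425 tRNA genes and 3019 miRNA, snoRNA and snRNA genes. Coverage at tRNA genes peaked at 38.1% of bins 300 to 350 bp away and dipped to 28.5% at the middle, while the short RNA genes stayed near 7% throughout the centre.

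Many tRNA genes lie near protein-coding genes, and those nearest to one had the highest share of peaks. The 54 tRNA genes with an end of a protein-coding gene within 1000 bp had a peak in 52 cases (96.3%, 87.3 to 99.5). The share was 66.3% (55.9 to 75.7) of 95 genes at 1001 to 10000 bp, 53.1% (45.1 to 61.0) of 160 genes at 10001 to 50000 bp and 32.8% (24.3 to 42.1) of 116 genes farther away. The short RNA genes had 54.8%, 14.8%, 5.88% and 3.81% in the same 4 classes, so that the tRNA genes were above them at every distance and their intervals did not overlap. With no coding end within 10000 bp, 123 of 276 tRNA genes (44.6%, 38.6 to 50.6) had a peak, against 4.94% of 1800 short RNA genes. Peaks at these remote tRNA genes were weaker and narrower, with a median fold of 4.11 and width of 1110 bp over 91 distinct peaks, compared with 4.93 and 1770 bp over 40 distinct peaks within 1000 bp of a coding end. Of the 43 tRNA genes that overlapped a protein-coding gene, 29 had a peak.

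**Figure D2:**
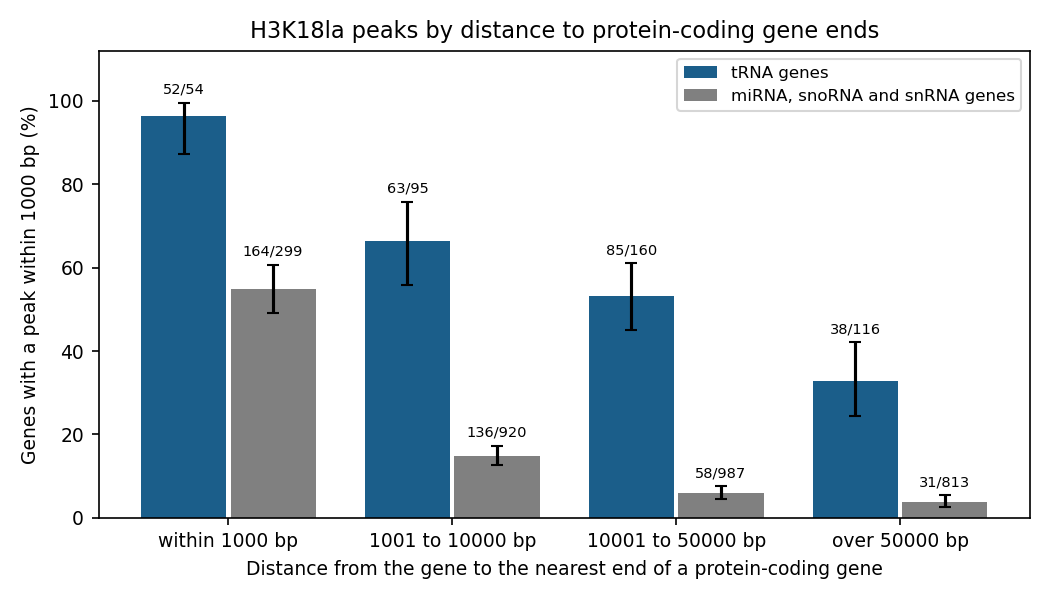
Share of genes with a peak within 1000 bp, by distance to the nearest end of a protein-coding gene, for tRNA genes and for miRNA, snoRNA and snRNA genes. Bars start at 0, error bars are exact 95% binomial intervals and the counts stand above the bars; tRNA genes ranged from 96.3% to 32.8% and the other short genes from 54.8% to 3.81%.

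The strongest peaks at tRNA genes were mostly shared with a coding gene. The isoleucine gene TRI-TAT1-1 (NCBI gene 100189324, chromosome 19, 39412168 to 39412260) had the highest value, an 11.3-fold peak at 39412513 to 39414140 that also lay at PLEKHG2, with a further peak on its other side. Its -log10 q of 101.3 was far above the 24.6 to 37.8 of the next 3 peaks of 9.14-fold to 9.62-fold, and the level of background reads at this place, which enters the significance, was not tested. The serine gene TRS-CGA4-1 followed with 9.62-fold on chromosome 12, in a peak also at SMARCC2, a subunit gene of SWI/SNF chromatin remodellers. The leucine gene TRL-AAG2-4 had 9.60-fold on chromosome 16, and its peak lay at POLR3E, itself a subunit gene of RNA polymerase III, 188 bp away. The arginine gene TRR-CCT4-1 had 9.14-fold on chromosome 7, in a peak also at LUC7L2 and FMC1.

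Among the 15 strongest peaks, 4 lay at no coding end within 1000 bp. They were those of TRN-GTT4-1 (8.95-fold, chromosome 1), of TRD-GTC1-1 and TRW-CCA4-1 together (7.97-fold, chromosome 12), of TRI-TAT2-1 (7.15-fold, chromosome 2) and of TRR-CCG1-3 (7.01-fold, chromosome 16). The others included the peaks of TRS-AGA2-5 (8.66-fold, at CFAP418), of the cysteine genes TRC-GCA2-2 and TRC-GCA4-1 (8.09-fold, at LASP1), of TRY-GTA5-1, TRY-GTA5-2 and TRA-AGC8-2 (8.01-fold, at TRIM55), of TRT-AGT1-3 (6.95-fold, at WDR88), of TRE-TTC1-2 (6.83-fold, at ELF1 and WBP4) and of TRV-AAC1-1 (6.82-fold, at MYNN). The 5 weakest ranged from 2.56-fold at TRA-AGC3-1 to 2.63-fold at TRF-GAA1-1, with -log10 q of 1.53 to 2.18, and all lay on chromosome 6. The marked genes nearest to the 1000 bp limit were TRC-GCA14-1, 832 bp from its peak, TRP-AGG2-7 at 794 bp and TRL-CAA6-1 at 713 bp. The nearest unmarked ones were TRY-GTA6-1 at 1088 bp, TRS-GCT2-1 at 1142 bp and TRA-AGC1-1 at 1374 bp. The 187 genes without a peak had their nearest peak at a median distance of 20700 bp.

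**Figure D3:**
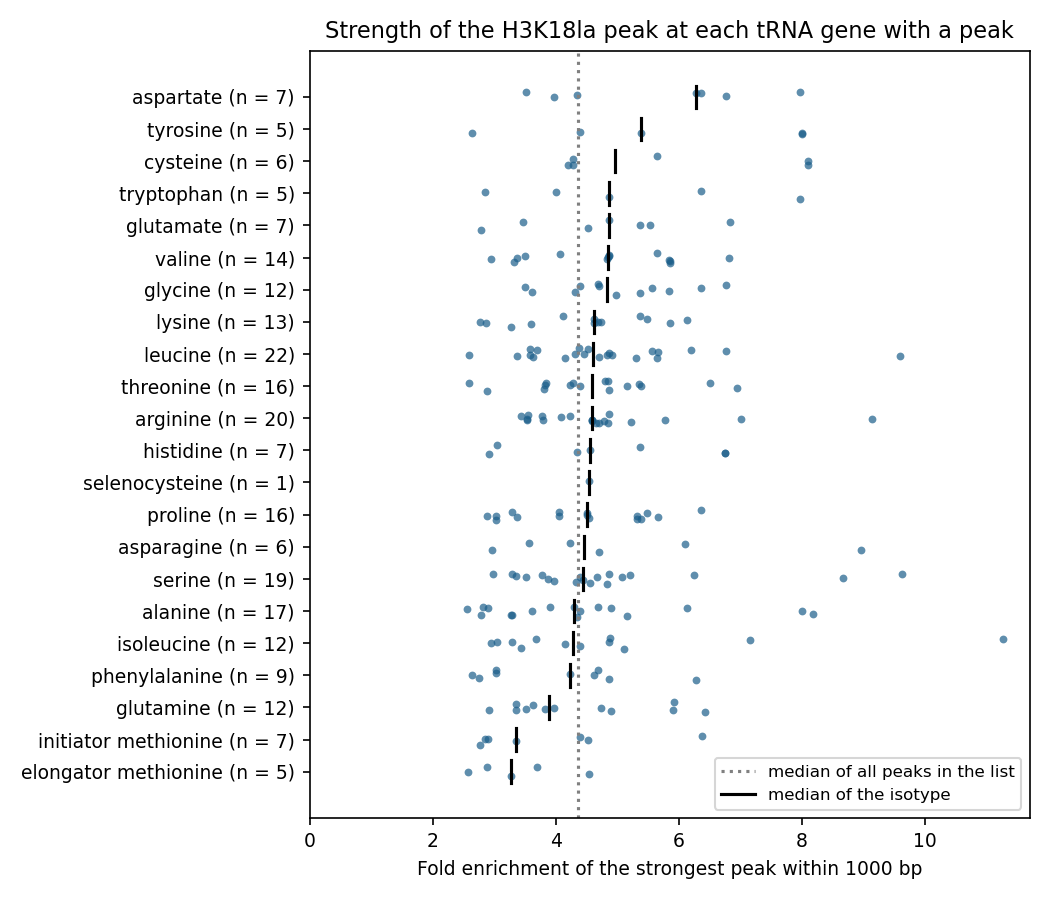
Fold enrichment of the strongest peak within 1000 bp for each of the 238 tRNA genes with a peak, by isotype, with points jittered vertically, the median of each isotype as a black bar and the median of all peaks (4.36) as a dotted line. Isotype medians ran from 3.28 at elongator methionine to 6.28 at aspartate, and TRI-TAT1-1 stood highest at 11.3.

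All 22 isotypes had at least 1 gene with a peak, and their shares ran widely. The highest were initiator methionine (7 of 8 genes, 87.5%, 47.3 to 99.7), phenylalanine (9 of 11), threonine and proline (16 of 20 each, 80.0%, 56.3 to 94.3), histidine (7 of 9), arginine (20 of 26), serine (19 of 26), tryptophan (5 of 7) and leucine (22 of 32). In the middle were glutamine (12 of 19), isoleucine (12 of 20), aspartate (7 of 13), selenocysteine (1 of 2), valine (14 of 29), lysine (13 of 27), glutamate (7 of 15), alanine (17 of 37) and elongator methionine (5 of 11). The lowest were glycine (12 of 30), tyrosine (5 of 13), asparagine (6 of 21, 28.6%, 11.3 to 52.2) and cysteine (6 of 29, 20.7%, 7.99 to 39.7). The interval of cysteine did not reach those of phenylalanine, threonine, proline, histidine, arginine, serine, leucine or initiator methionine, and most other intervals overlapped. These shares are read against 56.0% over all tRNA genes.

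**Figure D4:**
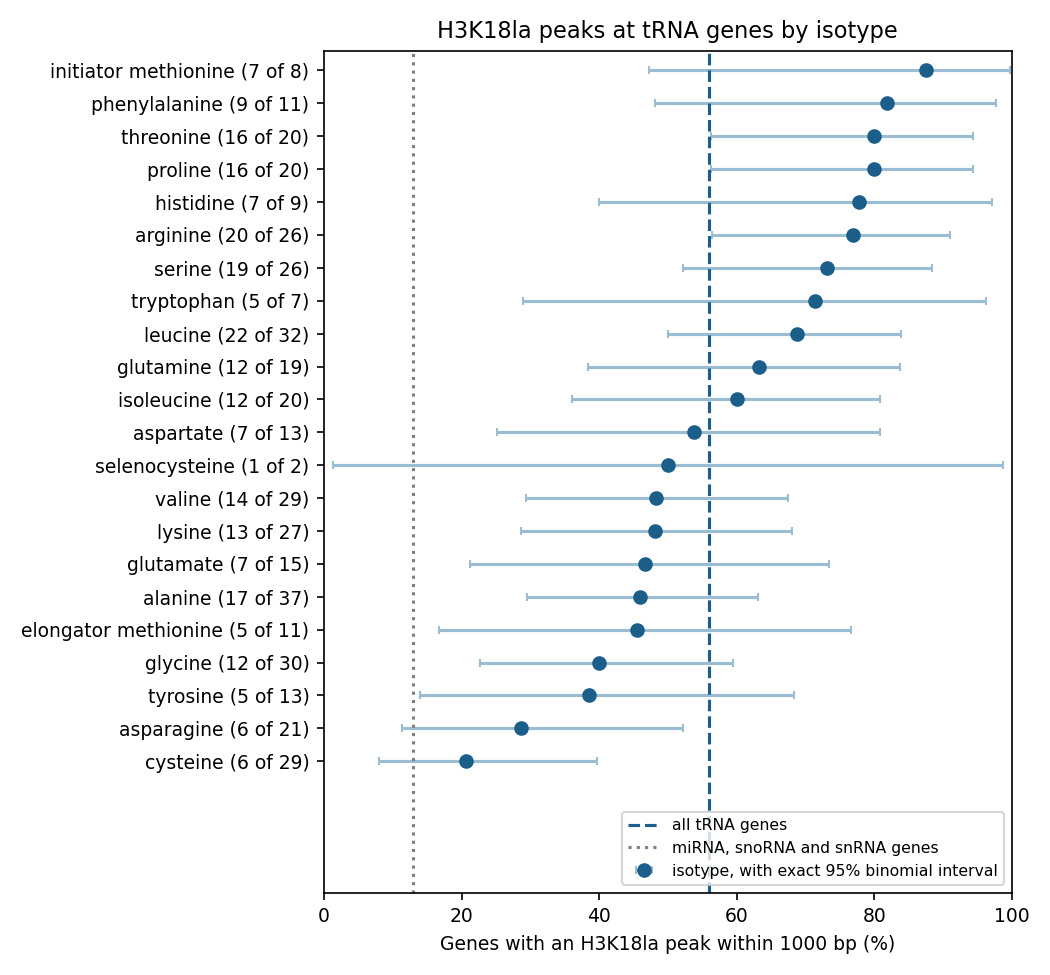
Share of tRNA genes with an H3K18la peak within 1000 bp for each of the 22 isotypes, with the exact 95% binomial interval and the counts beside each name. Dashed and dotted lines give the share over all tRNA genes (56.0%) and over miRNA, snoRNA and snRNA genes (12.9%); initiator methionine is highest at 87.5% and cysteine lowest at 20.7%.

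Several isotypes, among them cysteine, asparagine, glycine and alanine, had a lower share on the chromosome that holds most of their genes than on the others together. Of the 29 cysteine genes, which share the anticodon GCA, 18 lie on chromosome 7 and none of these had a peak (0%, up to 18.5%). On other chromosomes 6 of 11 had one, among them all 5 on chromosome 17, from 4.28-fold at TRC-GCA2-3 and TRC-GCA2-4 to 8.09-fold at TRC-GCA2-2 and TRC-GCA4-1. All 5 lay within 10000 bp of a coding end, and the 22 cysteine genes beyond that distance had no peak. Asparagine genes had a peak in 3 of 17 cases on chromosome 1 and in 3 of 4 elsewhere, glycine genes in 4 of 18 cases on chromosome 1 and in 8 of 12 elsewhere (1 of 4 on chromosome 16), and alanine genes in 11 of 30 cases on chromosome 6 and in 6 of 7 elsewhere. The same held for isoleucine (7 of 15 genes on chromosome 6, 12 of 20 in all) and glutamate (2 of 9 on chromosome 1, 7 of 15 in all). Glutamine (8 of 11 on chromosome 6, 12 of 19 in all) and phenylalanine (5 of 6 on chromosome 6, 9 of 11 in all) went the other way. Tyrosine genes were spread more evenly. They had a peak at 1 of 5 on chromosome 14, 1 of 4 on chromosome 6, 1 of 2 on chromosome 2 and 2 of 2 on chromosome 8. Over all isotypes, 27 of 85 tRNA genes on chromosome 1 had a peak (31.8%, 22.1 to 42.8), 1 of 22 on chromosome 7 and 91 of 154 on chromosome 6 (59.1%), against 30 of 33 on chromosome 17 (90.9%, 75.7 to 98.1). The chromosome 6 peaks were weaker, with a median fold of 3.86 over 70 distinct peaks, compared with 4.71 over 96 on the other chromosomes. These chromosomes also differed in distance to coding genes. A coding end lay within 10000 bp of 24 of 85 tRNA genes on chromosome 1, 4 of 22 on chromosome 7, 19 of 154 on chromosome 6 and 29 of 33 on chromosome 17. Whether the chromosome differences remain at equal distance was not tested.

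The initiator methionine genes, whose product starts every protein chain, share 1 sequence by their symbols, TRX-CAT1. TRX-CAT1-2 had the highest value, 6.38-fold in a peak over the gene (chromosome 6, 26283979 to 26287024), near the histone gene H4C8. TRX-CAT1-1 had 4.52-fold on chromosome 1 in a peak over the gene, 257 bp from an end of ILF2, and TRX-CAT1-7 had 4.40-fold in a peak 36 bp away. TRX-CAT1-3, TRX-CAT1-8, TRX-CAT1-4 and TRX-CAT1-6 had 3.35-fold, 2.91-fold, 2.84-fold and 2.78-fold, all in peaks beside the gene with a -log10 q under 5. TRX-CAT1-5 had none. These 4 values lay below the median of all peaks (4.36-fold), so that the high share of this isotype rested partly on weak peaks. Of the selenocysteine genes, whose tRNA reads an in-frame stop codon, TRU-TCA1-1 had a 4.54-fold peak over the gene near FOSB on chromosome 19 and TRU-TCA2-1 on chromosome 22 had none.

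Among the 48 anticodons, 3 with at least 4 genes had a peak at every gene and none of that size had no peak at all. Arginine ACG had 7 of 7, from 3.44-fold at TRR-ACG2-4 to 4.84-fold at TRR-ACG1-2. Threonine CGT had 5 of 5 in 5 separate places, from 3.81-fold at TRT-CGT2-1 to 6.51-fold at TRT-CGT4-1, although none lies within 10000 bp of a coding end. Arginine CCT had 4 of 4, from 3.80-fold at TRR-CCT3-1 to 9.14-fold at TRR-CCT4-1. Serine AGA had 9 of 10 and leucine CAA and proline TGG had 6 of 7 each. Within isotypes, alanine AGC had 8 of 25 genes marked, while alanine CGC had 3 of 4 and alanine TGC 6 of 8.

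Anticodons with many genes had the lower shares. The 15 anticodons with 10 or more genes had a peak at 100 of 225 genes (44.4%, 37.8 to 51.2) and the 30 with 4 to 9 genes at 135 of 194 (69.6%, 62.6 to 76.0). The 3 anticodons with 1 to 3 genes had a peak at 3 of 6. Across the 48 anticodons the number of genes and the share with a peak had a Spearman rho of -0.364, given as a description since anticodons share clusters and peaks.

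Isodecoders with many copies had the higher shares. Copies were taken from the symbols. Gene lengths differ within some isodecoders, such as I-TAT2 and Y-GTA5, so that not all copies are identical. Genes whose isodecoder has 4 or more copies had a peak in 98 of 145 cases (67.6%, 59.3 to 75.1), those with 2 to 3 copies in 43 of 72 (59.7%, 47.5 to 71.1) and those that occur once in 97 of 200 (48.5%, 41.4 to 55.7). Low isodecoder numbers, which the nomenclature gives to the sequences that score highest as tRNA, had the higher share. Numbers 1 to 3 had a peak at 186 of 270 genes (68.9%, 63.0 to 74.4), numbers 4 to 9 at 50 of 120 (41.7%, 32.7 to 51.0) and numbers of 10 or more at 2 of 27 (7.41%, 0.910 to 24.3), namely TRA-AGC11-1 and TRC-GCA14-1. None of the 8 genes with an unnumbered symbol had a peak. Among genes with no coding end within 10000 bp the shares were 92 of 159 (57.9%), 30 of 85 (35.3%) and 1 of 25, and outside chromosomes 1, 6 and 7 they were 98 of 127 (77.2%), 20 of 35 (57.1%) and 1 of 2.

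Copies of the same isodecoder often differed in whether a peak was listed. Of 55 isodecoders with 2 or more copies, 19 had a peak at every copy, 9 at none and 27 at some, and in 26 of these 27 the copies lay in several places. All copies were marked for serine S-AGA2 (6 copies), isoleucine I-AAT5, lysine K-TTT3 and proline P-TGG3 (5 copies each), leucine L-AAG2 and arginine R-ACG2 (4 copies each), and none of the 4 copies of cysteine C-GCA9. Aspartate D-GTC2 had a peak at 6 of 11 copies, from 3.52-fold to 6.77-fold, and histidine H-GTG1, whose sequence is shown above, at 7 of 9, from 2.91-fold at TRH-GTG1-5 to 6.75-fold at TRH-GTG1-8 and TRH-GTG1-9. TRH-GTG1-2 and TRH-GTG1-6 had none. Alanine A-AGC2, likewise shown above, had a 4.68-fold peak over TRA-AGC2-1 and none at TRA-AGC2-2.

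Joined over gaps of up to 20000 bp, the 425 genes formed 161 clusters, of which 95 (59.0%, 51.0 to 66.7) had a peak at 1 member or more. Of the 96 genes that stand alone, 48 had a peak. Members of clusters of 2 to 4 genes had one in 67 of 113 cases (59.3%) and members of the 20 clusters of 5 or more genes in 123 of 216 (56.9%). The share per gene therefore varied little with cluster size, and it varied much between the large clusters.

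All genes were marked in 4 of the 20 large clusters. The cluster on chromosome 11 (59550629 to 59566452, nearest to OSBP) had 8 of 8 genes of 5 isotypes marked, from 4.11-fold to 4.86-fold in 4 peaks, of which the first covered 4 tRNA genes over 5549 bp. The cluster on chromosome 17 nearest to CTC1 (8220869 to 8227064) had 7 of 7 genes of 7 isotypes marked, 4 of them under 1 peak of 6.35-fold. The cluster on chromosome 12 nearest to DHX37 had 5 of 5 and that on chromosome 6 nearest to TRIM27 (28941053 to 28953337) had 6 of 6. The largest cluster of all, on chromosome 6 nearest to ZNF184 (27478812 to 27688261), held 28 genes of 10 isotypes and had 22 marked through 18 distinct peaks, from 2.78-fold to 6.42-fold at TRQ-CTG1-2. The clusters nearest to H4C8 on chromosome 6 and to TRIM41 on chromosome 5 had 11 of 13 each, and the one nearest to HMGN4 on chromosome 6 had 10 of 13.

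The other 8 of the large clusters lay between 71.4% and 42.9%. Those nearest to HES7 on chromosome 17 and PRSS16 on chromosome 6 had 5 of 7 genes marked each, and that nearest to SCAND3 on chromosome 6 had 7 of 10. The chromosome 16 cluster nearest to the olfactory receptor gene OR1F1 had 8 of 14 and the chromosome 14 cluster nearest to OR6S1 had 4 of 7. The chromosome 6 cluster nearest to POM121L2 had 3 of 6. A further chromosome 6 cluster (28789770 to 28838515), whose nearest coding gene was also TRIM27 at 64487 bp, had 4 of 9. In the second cluster of chromosome 14, 3 of 7 genes were marked, all under the 5.38-fold peak of 4002 bp at ANG that covers TRP-TGG3-2, while 4 tyrosine genes farther off had none.

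Few or no genes were marked in 4 large clusters, with 4 of their 56 genes at a peak, against 234 of the other 369 tRNA genes. On chromosome 1 (161422093 to 161480636, nearest to FCGR2A) 3 of 26 genes were marked, all by 1 peak of 380 bp and 6.77-fold that touches TRD-GTC2-1 and lies within 1000 bp of TRG-TCC4-1 and TRL-CAG1-1. The cluster repeats the order of TRE-CTC1, TRG-TCC2, TRD-GTC2, TRL-CAG1 and TRG-GCC1 genes. Of its isodecoders, 7 also occur elsewhere, and these had a peak at 2 of 24 copies inside the cluster and at 16 of 22 copies outside. On chromosome 6 (26673362 to 26828299, nearest to ZNF322) 1 of 18 alanine, isoleucine and elongator methionine genes was marked, TRM-CAT4-2 at 2.58-fold. No gene was marked in the chromosome 6 cluster nearest to PRIM2 (6 genes) or in the chromosome 7 cluster nearest to ZNF746 (6 genes, cysteine and serine). These clusters have no coding end within 10000 bp, which is not particular to them. The same held for the fully marked chromosome 6 cluster at 28941053 to 28953337. It also held for the chromosome 6 clusters nearest to SCAND3 (7 of 10), PRSS16 (5 of 7) and POM121L2 (3 of 6), and for that at 28789770 to 28838515 (4 of 9). How reads from the repeated copies of the 4 clusters were placed was not tested.

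**Figure D5:**
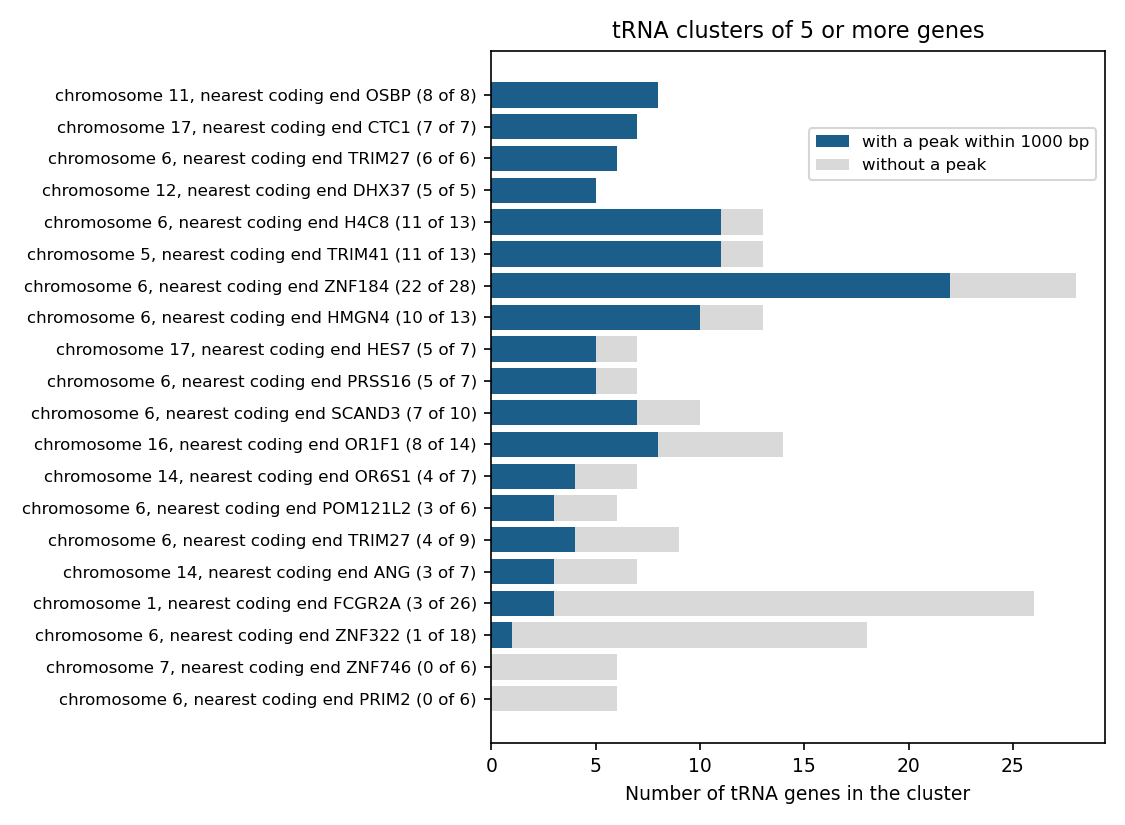
Number of tRNA genes with and without a peak within 1000 bp in each of the 20 clusters of 5 or more genes, named by chromosome and by the protein-coding gene with the nearest end. Bars start at 0; 4 clusters are fully marked at the top, and the clusters nearest to FCGR2A, ZNF322, ZNF746 and PRIM2 at the bottom have 3 of 26, 1 of 18 and no marked genes.

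Leaving these 4 clusters out, which were chosen by their values, the isotype shares moved for the isotypes that they hold. Alanine had 17 of 24, elongator methionine 4 of 5, aspartate 6 of 8, isoleucine 12 of 15, glutamate 7 of 10 and glycine 11 of 20. Cysteine (6 of 24), asparagine (6 of 20) and tyrosine (5 of 13) were then still the lowest. The 24 cysteine genes still included unmarked genes of chromosome 7 that lie in smaller clusters, and most of the 20 asparagine genes lie on chromosome 1. Outside chromosome 7 cysteine had 6 of 11, and outside chromosome 1 asparagine had 3 of 4. Leaving out the 4 clusters thus did not separate isotype from location.

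The other genes read by RNA polymerase III had a peak within 1000 bp at 21 of 37 (56.8%, 39.5 to 72.9). Under the same rule this was 12.9% of the miRNA, snoRNA and snRNA genes, 19.4% of snRNA genes alone and 34.0% of all genes other than tRNA. Distances of the 37 genes to coding ends are not given here. By class, peaks lay at all 6 genes of U6 and U6atac snRNA, which act in splicing (4.24-fold to 8.71-fold). Of these, RNU6-7 and RNU6-8 had the same peak. Peaks also lay at all 3 genes of 7SL RNA, the signal recognition particle RNA (4.17-fold to 7.23-fold), and at all 4 Y RNA genes (3.18-fold to 5.25-fold). The single genes RN7SK (3.69-fold), RMRP (5.80-fold) and RPPH1, the RNA of the RNase P that trims tRNA precursors (6.19-fold), each had one. Vault RNA genes had a peak at VTRNA1-1 and VTRNA1-2 and none at VTRNA1-3 and VTRNA2-1. The tandemly repeated 5S rRNA genes had a peak at 3 of 17, RNA5S6 (9.72-fold), RNA5S12 (4.38-fold) and RNA5S17 (5.05-fold).

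Chosen lists of genes of RNA polymerase III subunits, of its transcription factors and of tRNA maturation were marked almost throughout. All 13 listed genes of RNA polymerase III subunits had a peak in the gene or within 1000 bp (75.3 to 100%), with a median fold of 5.25. Among protein-coding genes 67.6% had one, with a median of 5.72 over those with a peak. The list held genes named POLR3 with POLR1C, POLR1D and CRCP, and does not cover every subunit of the enzyme. POLR3E had 9.60-fold in the peak it shares with TRL-AAG2-4, CRCP 7.07-fold and POLR3D 6.88-fold. All 17 listed genes of the polymerase's factors had a peak (80.5 to 100%, median 5.46). Among them were the repressor gene MAF1 at 9.69-fold, the TFIIIC genes GTF3C4 at 8.74-fold and GTF3C6 at 7.43-fold, and the TFIIIB gene BRF1 at 6.96-fold. Of 28 listed tRNA maturation genes 26 had a peak (92.9%, 76.5 to 99.1, median 5.13). The splicing endonuclease genes TSEN34 and TSEN54 had 11.4-fold and 7.58-fold, the tRNA exporter gene XPOT 7.32-fold and the ligase gene RTCB 6.81-fold. The RNA kinase gene CLP1 and QTRT1, which encodes a subunit of the queuine tRNA-ribosyltransferase, had none.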

How the data were processed

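Per the submitters' processing notes, reads were prepared with bcl2fastq 2.17, cutadapt 1.18 and Trimmomatic 0.38 and aligned to hg38 with Bowtie2 2.3.4.1. Picard, MACS2 (2.1.2 and 2.1.0 are both listed) and ChIPseeker are also named there. The deposited broad peak list gives a fold enrichment (a ratio), -log10 p, -log10 q and a score per peak. The caller's settings, its threshold, its control (the series text names IgG, the labels input) and the treatment of reads that match several places are not given in the sources used here. Peak starts were converted to 1-based positions. Genes came from NCBI RefSeq (GRCh38.p14) with no strand for tRNA. A gene was marked when a peak overlapped it or its 1000 bp flanks by 1 bp, with the peak of highest fold taken (Python 3.11.15, pandas 2.3.3, scipy 1.17.1). On simulated peaks the overlap equalled an exhaustive search at 425 of 425 genes. Members, gene lists and the naming rule were chosen with earlier results of these data known. The rule named the 15 strongest and 5 weakest peaks, clusters of 5 or more genes, every isotype, anticodons of 4 or more genes with all or none marked, the initiator methionine and selenocysteine genes, and in each further list the 4 strongest and the unmarked genes. Other genes named, and the splits by isodecoder and by copy, were chosen after their values were seen. A few items that the rule would name are not reported here.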

Additional observations from a re-analysis of the deposited data

How the results depend on the processing

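Of 40 comparisons with another setting, 25 stayed within 1.5 times the count reported or within the interval of the median fold (4.37 to 4.69), and 15 did not. The count of 238 tRNA genes was 125 with the peak over the gene itself, 115 with 50% of the window covered and 134 with peaks above the list's median fold. The count of 95 clusters was 59 over the gene itself and 58 with 50% covered. The 123 tRNA genes away from coding ends became 58, 48 and 53 under these 3 rules, 78 when -log10 q had to reach 5, and 38 (of 116) with no coding end within 50000 bp. The median fold of 4.53 over marked genes was 4.83 over the gene itself and 4.86 with 50% covered. It was 5.27 above the median fold and 4.84 with -log10 q of 5 or more. The last 2 rules drop weak or less significant peaks. The rise to 5.27 was fixed by its rule and is no check of the median, although it is counted among the 15. The 12829 marked protein-coding genes became 278 with 50% covered, since their windows span the whole gene. Under windows of 500 and 3000 bp the tRNA count was 224 and 258. With a single library, an unknown depth and a control that is not stated, weak peaks and missing ones are the least certain. No paired analysis was possible because each group holds 1 library and no comparison between libraries was made.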
